A study of Homo sapiens with 8 samples.

Results

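Protocadherins are the largest group of cadherin-like adhesion proteins, and 40 of the 18404 genes measured here belong to it. They were chosen by name only: a gene counted when its probe set carried a single platform symbol that begins with PCDH followed by a digit or a capital letter, and pseudogenes were left out. A gene with more than 1 such probe set was represented by its brightest, by mean log2 value over the 8 arrays. The members comprise 12 genes of the alpha cluster, 16 of the beta cluster, 1 of the gamma cluster (PCDHGB4) and 11 non-clustered genes. RefSeq lists 66 protein-coding protocadherins, of which 15, 16, 22 and 13 fall in those groups, so the beta cluster was measured whole and the gamma cluster almost not at all. The other genes were not analysed here.

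The arrays came from HepG2, a human cell line derived from a liver tumour that keeps many functions of hepatocytes. The Senescent group is 4 cultures that were exposed to 0.5 mM H2O2, an oxidant, for 60 minutes in culture medium. The Normal group is 4 cultures kept in medium alone. Both groups are the same line in the same serum-containing medium, and the labels place the tests for a senescent phenotype 5 days after the exposure and give no other time for the RNA. The design text calls the 4 samples of each group biological replicates. All cultures are of a single tumour line, which limits them as a model of hepatocytes.

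The clustered protocadherins lie side by side on chromosome 5 as alpha, beta and gamma arrays. Each alpha or gamma transcript joins a variable first exon, which encodes the outside of the protein and has a promoter of its own, to constant exons shared by its cluster. The beta genes have no constant exons, and each is a gene with a single coding exon. In neurons, cells use different sets of these genes, their proteins bind like to like between cells, and the choice of promoter depends on DNA methylation and on the looping proteins CTCF and cohesin. The non-clustered genes, the delta protocadherins and a few others, lie at separate places and are best known from brain development.

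Array medians lay between 6.85 and 6.93 on the log2 scale, and Pearson's r over all probe sets, which are not independent, was 0.990 to 0.996 within a group and 0.979 to 0.985 between groups. All 14 measured hepatocyte markers had mean log2 levels between 9.46 and 12.9, against a median of 7.52 over all genes. These levels show expression of hepatocyte genes and cannot tell HepG2 from other hepatocyte-like cells. Of all genes, 34.0% passed the test between the groups (limma, Benjamini-Hochberg adjusted p under 0.05), 19.2% higher and 14.8% lower in Senescent, and the median log2 difference was -0.022. Among 340 olfactory receptor genes, taken as genes of low signal, 5.29% passed and the median difference was -0.069. Every difference below is Senescent minus Normal on the log2 scale with its standard error, and n = 4 arrays per group.

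Beta-cluster genes were higher in Senescent cells, while the non-clustered genes were not called in either direction. In the beta cluster 11 of 16 members rose and 0 fell, with a median difference of 0.46. PCDHGB4, the gamma member, rose by 0.40 ± 0.066. In the alpha cluster PCDHA6 rose, PCDHA13 fell and 10 members did not pass. None of the 11 non-clustered members passed. In all, 13 of 40 members were called higher and 1 lower, against the 19.2% and 14.8% of all genes. A difference between clusters was not itself tested. In such bulk samples, a change in the number of cells that carry a transcript and a change in its amount per cell cannot be told apart.

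**Figure D1:**
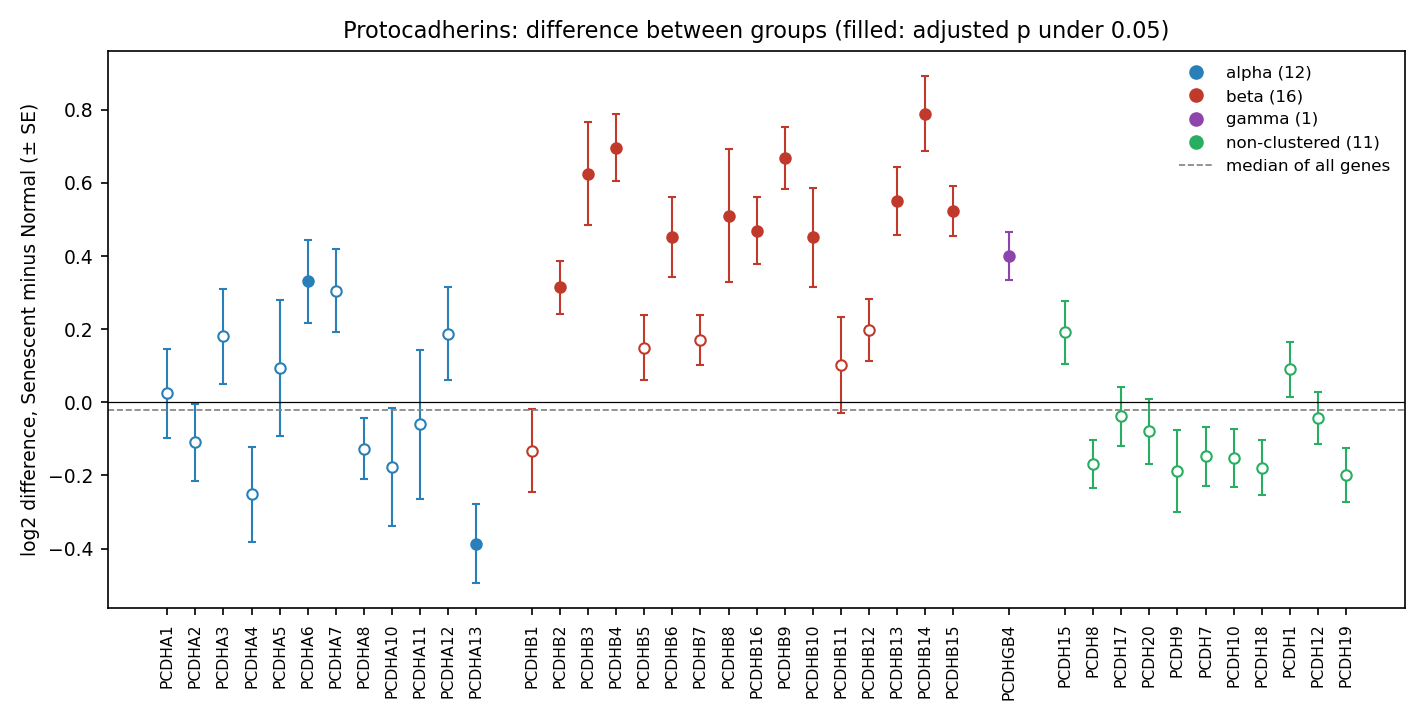
The log2 difference, Senescent minus Normal, of each of the 40 protocadherins with its standard error, by cluster; filled points passed limma at an adjusted p under 0.05, and the dashed line is the median of all genes at -0.022. Most beta points lie well above 0, up to 0.79 for PCDHB14, while the non-clustered points lie between -0.20 and 0.19.

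Promoter sequences are shown first for the beta genes, because 11 of these 16 members rose and most of their windows hold the same short stretch of letters. The windows come from RefSeq on GRCh38.p14, span 250 bases before to 50 bases after each gene's start, and were found for 34 of the 40 members (10 alpha, 14 beta, 1 gamma, 9 non-clustered). TGGCGCT, searched on both strands, was present in 13 of the 14 beta windows and in 0 of 10 alpha windows. It was also in PCDHGB4 and in 1 of 9 non-clustered windows, that of PCDH15. Counting gamma genes that were not measured as well, 3 of 20 with a window hold it. Of all 35116 such windows, 4.08% hold it. That share counts windows, whereas the protocadherin counts are of genes, each counted once if any of its windows holds the letters. The letters were chosen after these sequences had been read, out of 8 patterns looked at. Of the others, GGCGCT, part of TGGCGCT, was in 13 beta, 0 alpha and 2 non-clustered windows, and in 21.7% of all windows. A GC box (GGGCGG) was in 0 beta windows and a TATA box (TATAAA) in 1. A longer pattern like the core of a CTCF site was in 1. A match here is a run of letters and not a measured binding site. In the lines below, 30 bases of the plus strand of chromosome 5 are given 5′ to 3′ with TGGCGCT in capitals, for the 4 members that rose most, for PCDHB5, which has the letters but was not called, and for PCDHGB4.
PCDHB14, chr5:141223264-141223293: ggagacacatggTGGCGCTacaggataaga
PCDHB4, chr5:141121724-141121753: caagacgcagggTGGCGCTgcaggctaagt
PCDHB9, chr5:141187075-141187104: gaagccacaaggTGGCGCTgcagactgaag
PCDHB3, chr5:141100394-141100423: gcgaacgcatggTGGCGCTgttgactaaga
PCDHB5, chr5:141135180-141135209: taggacgcctggTGGCGCTgcaggctaaga
PCDHGB4, chr5:141387645-141387674: aagtggagagctTGGCGCTccagatctcct
Across the 13 beta stretches, 7 of the 23 bases that flank TGGCGCT were the same in every window and 12 were the same in 11 or more. The stretches were lined up on letters chosen from these same windows, and the beta genes are close paralogs. The likeness of other parts of the windows was not counted, so nothing is read from these counts. Counted from the gene's start as 0, the first of these letters lay between positions -82 and 0. They were present in all 10 called beta members with a window, and also in PCDHB5, PCDHB7 and PCDHB12, which were not called.

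The 250 bases upstream of PCDHB14, the member that rose most, and of PCDHB1, whose window lacks these letters, are both on the plus strand and are printed with TGGCGCT in capitals. The difference of PCDHB1, -0.13 ± 0.11, did not pass (limma, adjusted p = 0.422), its mean level of 4.68 lies below the olfactory receptor median of 4.93, and 3 other uncalled genes hold the letters, so nothing is read from this pair.
PCDHB14, chr5:141223093-141223342: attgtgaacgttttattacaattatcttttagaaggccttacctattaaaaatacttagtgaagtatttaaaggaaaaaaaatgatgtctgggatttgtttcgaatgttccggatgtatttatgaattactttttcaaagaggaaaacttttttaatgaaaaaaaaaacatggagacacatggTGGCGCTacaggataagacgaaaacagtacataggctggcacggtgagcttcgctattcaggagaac
PCDHB1, chr5:141051124-141051373: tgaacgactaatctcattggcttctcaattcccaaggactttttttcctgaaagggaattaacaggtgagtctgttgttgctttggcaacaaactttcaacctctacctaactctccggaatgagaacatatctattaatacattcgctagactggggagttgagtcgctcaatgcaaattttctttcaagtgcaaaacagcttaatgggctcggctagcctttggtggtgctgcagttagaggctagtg

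PCDHB14 had the largest rise of the 40 members. Its log2 levels were 6.49, 6.61, 7.06 and 6.64 on Normal arrays 1 to 4 and 7.52, 7.49, 7.43 and 7.51 on Senescent arrays 1 to 4. The Senescent arrays lay close together and all above the Normal arrays, of which replicate 3 was the highest. The difference was 0.79 ± 0.10, or 1.73-fold (limma, adjusted p = 3.8e-05).

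PCDHB4, an early gene of the cluster, was dim on every array. Its levels were 4.52, 4.29, 4.49 and 4.63 in Normal and 5.27, 5.21, 4.95 and 5.28 in Senescent. The groups did not overlap, and the difference was 0.70 ± 0.092 (limma, adjusted p = 4.47e-05). PCDHB9 read 6.39, 6.29, 6.61 and 6.57 in Normal and 7.27, 7.02, 7.13 and 7.12 in Senescent, again without overlap. It rose by 0.67 ± 0.085 (limma, adjusted p = 2.98e-05).

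PCDHB3 stood at 5.85, 6.00, 6.66 and 6.08 in Normal and at 6.93, 6.70, 6.61 and 6.84 in Senescent. Normal replicate 3 lay above the lowest Senescent array, so the groups overlapped, and the rise was 0.63 ± 0.14 (limma, adjusted p = 0.00323). PCDHB13 read 6.52, 6.70, 7.01 and 6.65 in Normal and 7.33, 7.20, 7.24 and 7.31 in Senescent. All its Senescent arrays were above all its Normal arrays, and it rose by 0.55 ± 0.093 (limma, adjusted p = 0.000366). PCDHB15, the last gene of the cluster, went from 5.46, 5.66, 5.57 and 5.46 in Normal to 6.10, 6.00, 6.09 and 6.05 in Senescent. The groups were apart on every array, with a rise of 0.52 ± 0.068 (limma, adjusted p = 3.87e-05).

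The highest levels among beta members were those of PCDHB2 and PCDHB16. PCDHB2 read 8.97, 9.07, 9.16 and 8.92 in Normal and 9.41, 9.38, 9.24 and 9.34 in Senescent. It had the smallest rise among the called beta genes, 0.31 ± 0.073 (limma, adjusted p = 0.00389), and its groups did not overlap. PCDHB16 read 7.90, 7.95, 8.34 and 8.10 in Normal and 8.62, 8.56, 8.54 and 8.44 in Senescent. Its groups were also apart, and it rose by 0.47 ± 0.092 (limma, adjusted p = 0.00116).

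The remaining called beta genes were PCDHB6, PCDHB8 and PCDHB10, whose groups overlapped. PCDHB6 rose by 0.45 ± 0.11 (limma, adjusted p = 0.00497), with Senescent replicate 3, at 4.52, inside the Normal range. PCDHB8 rose by 0.51 ± 0.18 (limma, adjusted p = 0.0428), with Normal replicate 3, at 7.13, above 2 Senescent arrays. Its adjusted p was 0.122, 0.113 and 0.113 without Normal replicates 1, 2 and 4, 0.101 and 0.116 without Senescent replicates 1 and 2, 0.0565 after quantile normalization and 0.110 with limma's trend and robust prior. PCDHB10 rose by 0.45 ± 0.13 (limma, adjusted p = 0.0186). Its adjusted p was 0.0575 and 0.0544 without Normal replicates 2 and 4, and 0.0609 without Senescent replicate 1.

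The beta genes that did not pass were PCDHB1, PCDHB5, PCDHB7, PCDHB11 and PCDHB12. Their differences were -0.13 ± 0.11, 0.15 ± 0.089, 0.17 ± 0.068, 0.10 ± 0.13 and 0.20 ± 0.084, in that order. The 95% interval for PCDHB5 ran from -0.042 to 0.34, and that for PCDHB11 from -0.18 to 0.38. PCDHB7 lay higher on every Senescent array, at 5.72 to 5.90 against 5.55 to 5.68, but had an adjusted p of 0.0684 by limma. In gene order, called members lay along the whole cluster from PCDHB2 to PCDHB15, with the uncalled PCDHB5, PCDHB7, PCDHB11 and PCDHB12 among them. The cluster's pseudogenes PCDHB17P and PCDHB18P, which lie among these genes, had differences of 0.021 (limma, adjusted p = 0.892) and 0.11 (adjusted p = 0.467).

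**Figure D2:**
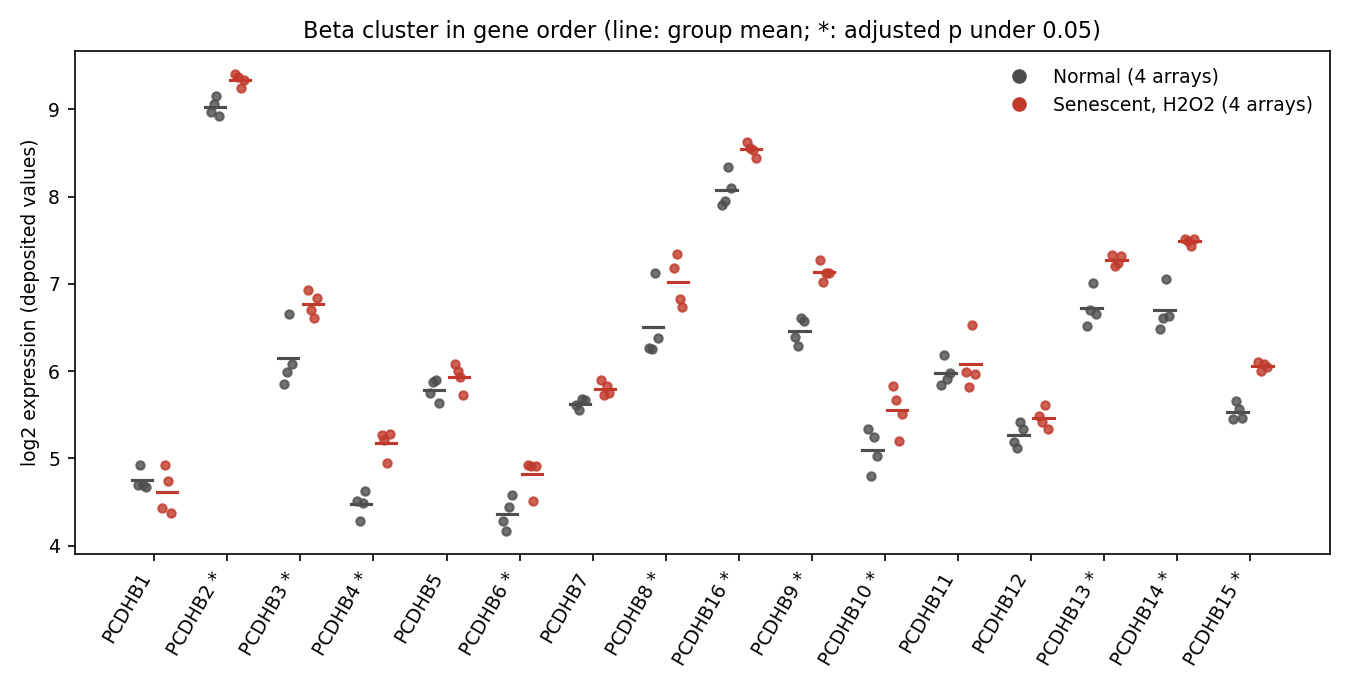
Log2 expression of the 16 beta genes in their order along the chromosome, with a point per array, a line at each group mean and a star at adjusted p under 0.05. The red Senescent points sit above the grey Normal points for PCDHB14, at 7.43 to 7.52 against 6.49 to 7.06, while those of PCDHB1 overlap.

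Counted over the cluster, 15 of 16 beta differences were positive, and the groups did not overlap in 8 of 16, all higher in Senescent, against 18.9% of all genes. By unadjusted p under 0.05, 13 beta genes were higher and 0 lower, against 4152 higher and 3542 lower of all 18404 genes. Normal replicate 3 was the highest Normal array for 10 of the 16 beta genes and for 7 of the 11 called ones, and without it 12 were called; leaving out each array in turn gave 9 to 12. Beta genes are close paralogs, so a probe set's value may hold signal from neighbours, and the extent of this was not tested.

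PCDHGB4 was the only gamma gene with a probe set that carries a single symbol. It read 8.91, 8.95, 8.81 and 8.85 in Normal and 9.29, 9.31, 9.34 and 9.19 in Senescent. The groups were apart, and the difference of 0.40 ± 0.066 is a 1.32-fold rise (limma, adjusted p = 0.000292). Gamma transcripts share constant exons, and whether this probe set also holds signal from other gamma genes was not tested. With 1 of 22 gamma genes measured, nothing is said of the gamma cluster as a group. PCDHGC3, PCDHGC4, PCDHGC5, PCDHAC1 and PCDHAC2, the genes of the last variable exons of their clusters, had no probe set with a single symbol.

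The alpha cluster showed no common direction: 6 of its 12 differences were positive, and their median was -0.018. PCDHA13 was the brightest alpha gene, at 7.99, 7.99, 7.80 and 7.86 in Normal and 7.25, 7.45, 7.85 and 7.54 in Senescent. Senescent replicate 3 lay inside the Normal range and the other Senescent arrays below it. It fell by 0.39 ± 0.11 on the log2 scale (limma, adjusted p = 0.0123), and is the only protocadherin called lower.

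PCDHA6 read 4.97, 4.89, 5.21 and 5.00 in Normal and 5.22, 5.06, 5.59 and 5.53 in Senescent, with overlap. It rose by 0.33 ± 0.11 (limma, adjusted p = 0.0367). Its adjusted p was 0.0852, 0.0961 and 0.0807 without Normal replicates 1, 2 and 4, and 0.0890 and 0.116 without Senescent replicates 3 and 4. PCDHA8, the next brightest alpha gene, differed by -0.13 ± 0.083, which did not pass.

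PCDHA7 had a difference of 0.31 ± 0.11 that did not pass (limma, adjusted p = 0.0545) but passed in 5 of 14 alternatives. The other 8 alpha genes lay between -0.25 (PCDHA4) and 0.19 (PCDHA12), and their standard errors reached 0.20 for PCDHA11. A probe set shared by 15 alpha symbols, of which none can be named from it, differed by 0.063 ± 0.099 in a fit over all probe sets, of which 21.7% passed (limma, adjusted p = 0.726).

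**Figure D3:**
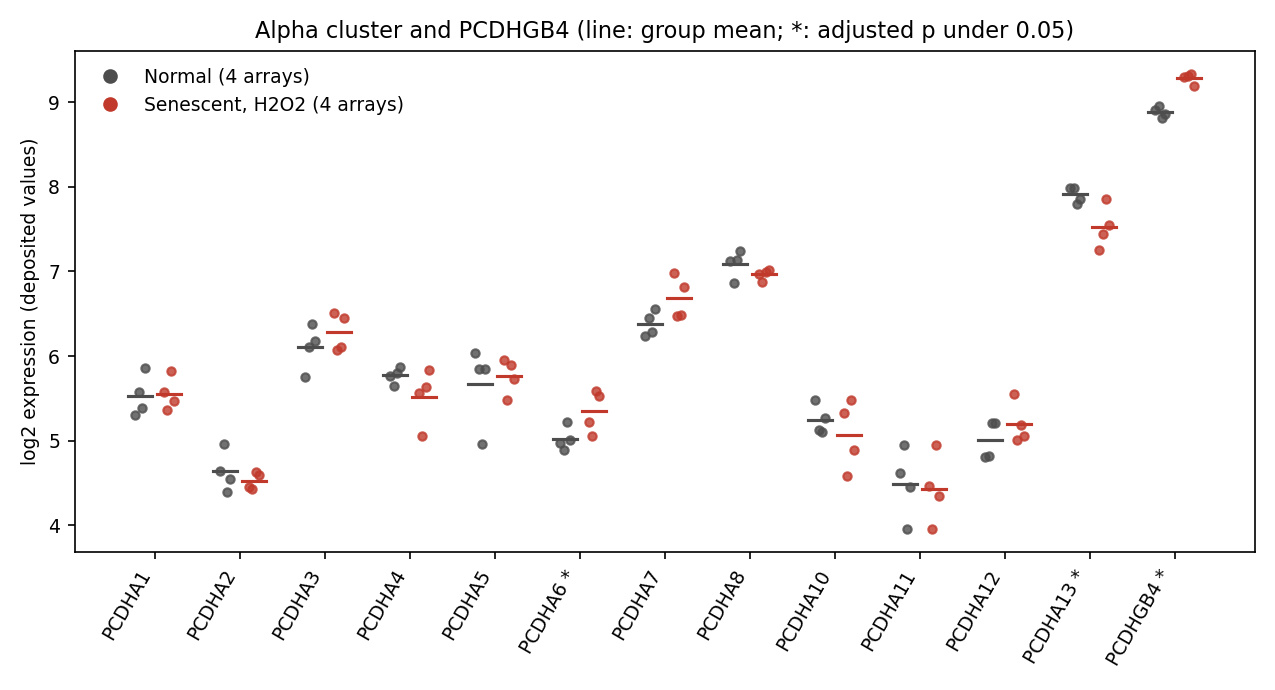
Log2 expression of the 12 alpha genes and PCDHGB4, with a point per array, a line at each group mean and a star at adjusted p under 0.05. Group ranges overlap for every alpha gene, whereas PCDHGB4 separates, at 8.81 to 8.95 against 9.19 to 9.34.

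The non-clustered genes differed little. Of 11 members 0 were called (limma, all adjusted p above 0.05). By unadjusted p under 0.05, 1 was higher and 3 were lower, against 4152 and 3542 of all 18404 genes. Differences ran from -0.20 for PCDH19 to 0.19 for PCDH15, with a median of -0.15, and 9 of 11 were negative. PCDH8 read 6.54, 6.60, 6.49 and 6.59 in Normal and 6.40, 6.29, 6.43 and 6.42 in Senescent. The groups did not overlap, as for 14.8% of all genes in this direction, yet the test gave -0.17 ± 0.065 (limma, adjusted p = 0.0617).

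PCDH19, an X-linked delta protocadherin known for its part in epilepsy, read 5.26, 5.42, 5.17 and 5.32 in Normal and 5.04, 5.03, 5.13 and 5.18 in Senescent. Its difference was -0.20 ± 0.073 (limma, adjusted p = 0.0517), and Senescent replicate 4 lay inside the Normal range. PCDH18 differed by -0.18 ± 0.074 and PCDH15, a component of the tip links of hair cells, by 0.19 ± 0.087, at adjusted p of 0.0837 and 0.111 (limma). Without Senescent replicate 3, PCDH8, PCDH18 and PCDH19 were called lower, 3 of 11 genes, and in the same setting 3069 of all 18404 genes were.

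PCDH1, an adhesion protein of airway epithelium, and PCDH17 were the brightest of the non-clustered genes. PCDH1 differed by 0.091 ± 0.075 and PCDH17 by -0.038 ± 0.080. PCDH7, PCDH9, PCDH10, PCDH12 and PCDH20 differed by -0.15, -0.19, -0.15, -0.042 and -0.080. Both probe sets with several non-clustered symbols differed by -0.10 and -0.020 and did not pass (limma, adjusted p = 0.423 and adjusted p = 0.900).

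Most members gave weak signals. The mean log2 level lay below the all-gene median of 7.52 in 36 of 40, and only PCDHB2, PCDHGB4, PCDHB16 and PCDHA13 were above it. Against the 95th percentile of olfactory receptor genes, 6.23, 7 of 16 beta, 3 of 12 alpha, 3 of 11 non-clustered genes and PCDHGB4 were higher. The called genes PCDHB4 and PCDHB6, at mean levels of 4.83 and 4.59, lay below the olfactory receptor median of 4.93. The called PCDHB15, PCDHB10 and PCDHA6, at 5.80, 5.33 and 5.19, lay above that median but below 6.23. These levels are not shown to lie above background.

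**Figure D4:**
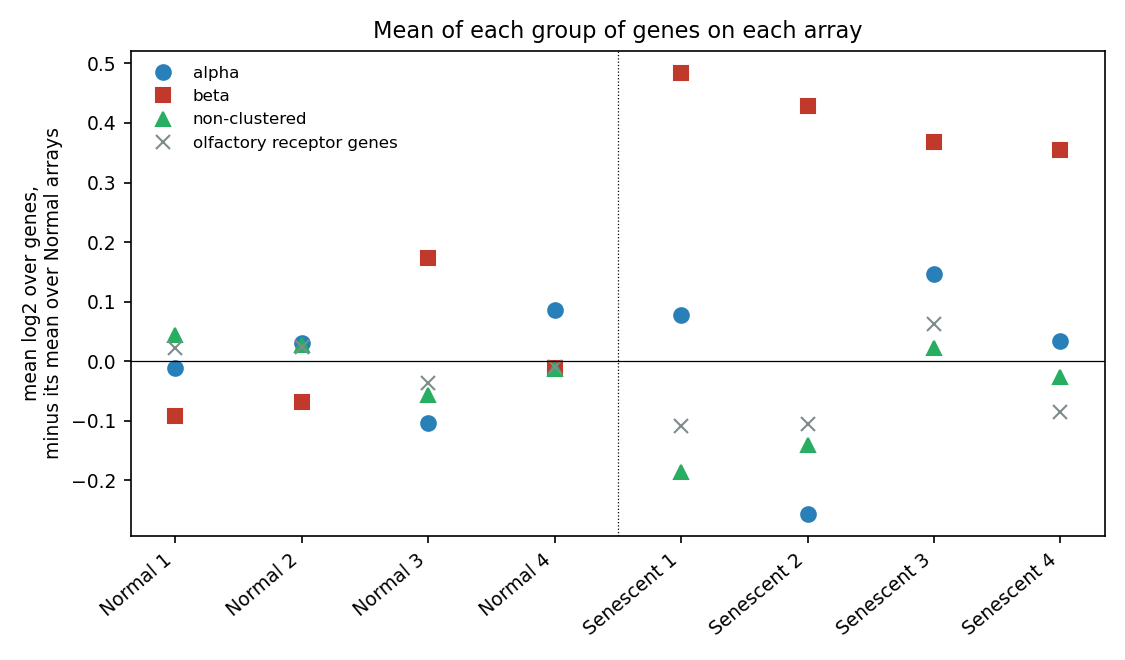
Mean log2 value over the alpha, beta, non-clustered and olfactory receptor genes on each array, after subtracting its mean over the Normal arrays. Beta points of all 4 Senescent arrays lie above all Normal ones, while Senescent replicate 3 stands highest of the Senescent arrays in the other groups of genes.

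The mean over the 16 beta genes was 5.94, 5.96, 6.21 and 6.02 on the Normal arrays and 6.52, 6.46, 6.40 and 6.39 on the Senescent ones. The non-clustered mean was 5.76, 5.75, 5.66 and 5.71 against 5.53, 5.58, 5.74 and 5.69. Senescent replicate 3 thus read high in the non-clustered genes, and in olfactory receptor genes it read 5.07 against 4.90 to 4.92 on the other Senescent arrays. The part of that array in the results was not tested beyond leaving it out.

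Of the genes that act around the clusters, 17 measured ones make up the list of CTCF, cohesin and chromatin regulators of the promoters. In this list 11 were called lower, 0 higher and 6 neither, against 14.8% lower and 19.2% higher among all genes. The median difference of the list was -0.29. SMC3, a core subunit of the cohesin ring, fell by 0.89 ± 0.083 (limma, adjusted p = 1.83e-06), and RAD21, the subunit that closes the ring, by 0.70 ± 0.084 (limma, adjusted p = 1.93e-05). CTCF itself, which anchors loops at the promoters and is named here outside the naming rule after its value was seen, differed by -0.10 ± 0.079 (limma, adjusted p = 0.352).

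Among intracellular partners, 6 of 14 rose and 1 fell, beside 19.2% and 14.8% of all genes. RAC1, a GTPase that acts on the WAVE complex, rose by 0.85 ± 0.15, and CYFIP2, a WAVE subunit, by 0.62 ± 0.092. PTK2, the focal adhesion kinase, which the clustered proteins can inhibit, fell by 0.29 ± 0.072 on the log2 scale. Of the sheddase and gamma-secretase genes, whose products cut protocadherins at the membrane, 3 of 7 rose and 0 fell, beside the same shares of all genes. APH1B rose by 0.76 ± 0.078 and PSENEN, another gamma-secretase subunit, by 0.58 ± 0.080.

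**Figure D5:**
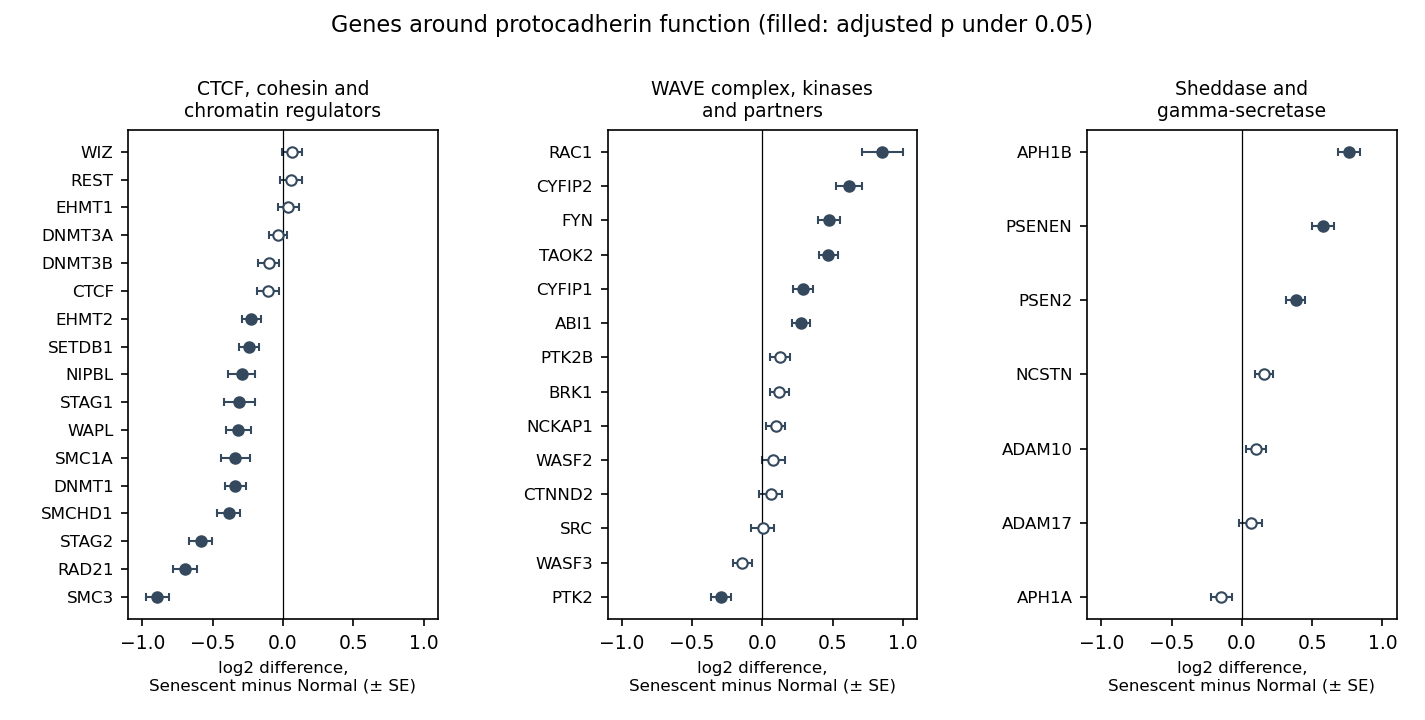
Log2 difference, Senescent minus Normal, with its standard error for CTCF, cohesin and chromatin regulators, for WAVE complex genes and partners, and for sheddase and gamma-secretase genes; filled points passed limma at an adjusted p under 0.05. In the left panel 11 of 17 genes are filled, all below 0, and in the right panel the 3 filled genes are above 0.

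Other cadherin families had shares of called genes that are read against 19.2% higher and 14.8% lower among all genes. Of 21 classical and other cadherins 4 rose, a share near that of all genes, and 1 fell. CDH1, the epithelial E-cadherin, rose by 0.81 ± 0.16 and CDH10 by 0.73 ± 0.088, and CDH5 fell by 0.25 ± 0.073 on the log2 scale. Of 17 FAT, dachsous, CELSR and cadherin-related genes 4 rose, also near that share, and 1 fell, with FAT1 up by 0.85 ± 0.10, CDHR2 up by 0.80 ± 0.080 and FAT4 lower by -0.44 ± 0.077. CDH10 and FAT4 had mean levels below 6.23, the 95th percentile of olfactory receptor genes, and are not shown to lie above background. Of 6 catenins, which link classical cadherins to actin, 2 rose and 0 fell: JUP by 0.78 ± 0.088 and CTNNA1 by 0.30 ± 0.081.

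The flanking genes of the 3 clusters were examined after the values were seen. Of 21 measured genes among the 22 nearest protein-coding ones, counting 10 on each side and the 2 between clusters, 10 were called higher and 2 lower, against 19.2% and 14.8% of all genes. The 21 include the members PCDH1 and PCDH12, which were not called. TAF7, a subunit of TFIID that lies between the beta and gamma clusters, rose by 0.38 ± 0.086, while SLC25A2, also between clusters, differed by 0.012 ± 0.076. GNPDA1 and RNF14, beyond the gamma cluster, rose by 0.56 ± 0.092 and 0.53 ± 0.075, and TMCO6, before the alpha cluster, fell by 0.53 ± 0.074 on the log2 scale.

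Markers of other cell types were listed because the clustered genes are best known from neurons. Of 14 neuron markers GAP43 rose by 0.26 and SNAP25 fell by 0.24 on the log2 scale, against 19.2% higher and 14.8% lower among all genes. All 14 lay below the all-gene median, 8 of them also below 6.23. The log2 of their summed level was 9.70 to 9.83 in Normal and 9.69 to 9.93 in Senescent. Of 7 glia markers 0 passed (limma; 0 by unadjusted p under 0.05 too), with summed levels of 9.52 to 9.60 and 9.45 to 9.59.

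Counts in the remaining marker lists are read against 19.2% higher and 14.8% lower among all genes. Outside the hepatocyte list they lie near or below these shares. Of 10 fibroblast and stellate cell markers COL1A1 rose by 0.41 and PDGFRB fell by 1.15 on the log2 scale, and summed levels were 9.79 to 9.89 and 9.59 to 9.82. Of 10 endothelial markers TIE1 rose by 1.67 and CDH5 fell, with 9.46 to 9.55 against 9.73 to 9.88. TIE1 went from a mean of 6.49 in Normal to 8.16 in Senescent, and 6 of the 10 differences were negative. Of 9 leukocyte markers CD68 rose by 0.80 and CD14 by 0.27, with 13.11 to 13.14 against 13.10 to 13.19. LYZ, uncalled at means of 12.9 in Normal and 12.8 in Senescent, makes up most of that sum. Of the 9 differences 6 were negative. Of the 14 hepatocyte markers 9 fell and 1 rose, TF by -0.90, FGB by -0.71 and TTR by 0.26, and the log2 of their summed level was 16.01 to 16.06 in Normal and 15.65 to 15.86 in Senescent. Their part in the protocadherin results was not tested.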

How the data were processed

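Total RNA was labelled with biotin and read on single-channel whole-transcript arrays, per the labels' protocols. The authors deposited log2 expression values per probe set, 32321 in all. The summarization of probes and the normalization between arrays are not given in the sources used here. The submitters' processing notes list limma, in a role they leave unstated. The platform annotation gives 19158 probe sets a single symbol, which made 18404 genes. Groups are those of the sample labels, and the number of arrays limits the precision.

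Senescent was compared with Normal by limma 3.58.1 in R 4.3.3 (1 mean per group, empirical Bayes, Benjamini-Hochberg over all 18404 genes, call at adjusted p under 0.05), tested on simulated data. No list was tested as a set. Promoters come from RefSeq (GRCh38.p14), read with Python 3.11.15. Members and lists were chosen with earlier results of these data known. Named are all called members, 11 measured of 16 fixed members, in each cluster the 2 brightest and the largest rise and fall, and up to 2 called rises and falls per list; others are said to be chosen after seeing values. Lists were CTCF, cohesin and chromatin regulators, intracellular partners, sheddase and gamma-secretase, cadherins, FAT and related genes, catenins, and markers of hepatocytes, neurons, glia, fibroblasts and stellate cells, endothelium and leukocytes. Alternatives were a replicate block, quantile normalization, centred medians, a filter on dim genes, means over probe sets, trend and robust priors, and leaving out arrays.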

Additional observations from a re-analysis of the deposited data

Results flagged for a closer look

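In 6 of 80 groups of 4 arrays, a protocadherin's highest or lowest array stood apart from the others by Dixon's test, which chance does for about 1 in 20 groups. PCDHB8 read 7.13 on Normal replicate 3 against 6.25 to 6.38 on the other Normal arrays, and PCDHB6 read 4.52 on Senescent replicate 3 against 4.91 to 4.93. PCDHB1 read 4.93 on Normal replicate 2 against 4.67 to 4.70. Of the non-clustered genes, PCDH17 read 6.38 on Normal replicate 3 against 6.62 to 6.66, PCDH10 read 6.01 on the same array against 6.20 to 6.23, and PCDH12 read 5.90 on Normal replicate 4 against 5.80 on each of the others.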

How the results depend on the processing

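Of the 14 called members, 11 kept their call and direction in every setting that fitted them, and the exceptions, PCDHB8, PCDHB10 and PCDHA6, are given with their values above. Under the replicate block 12 members were called higher, 10 of them beta genes, and PCDHB8 had an adjusted p of 0.0725 by limma; it changed no other call of a member. Same-numbered samples had deviations from their group means that correlated at -0.074, 0.0045, -0.21 and 0.14. Such values cannot show whether same-numbered samples were handled together. With dim genes left out 4 members remained, of which 3 were called higher, 2 of 2 beta genes and 0 alpha genes, and the alpha median was -0.39, from PCDHA13 alone. Quantile normalization called 2 alpha genes and 1 non-clustered gene higher, and the trend and robust prior 2 alpha genes. With array medians centred 2 members were called lower, 1 of them non-clustered. With 1 array left out at a time, members called higher ranged from 10 to 14 and lower from 1 to 4; beta genes higher from 9 to 12, alpha genes higher from 0 to 2 and lower from 1 to 2, and non-clustered genes higher from 0 to 1 and lower from 0 to 3. Over all 18404 genes, 3110 to 3686 were then called higher and 2228 to 3069 lower. The alpha median ranged from -0.13 to 0.092. With replicate 3 of both groups left out, an alternative chosen after seeing the data, 6 members were called lower, 2 alpha and 4 non-clustered. In that setting 3882 of all 18404 genes were called lower. Uncalled differences that changed sign with 1 array left out ranged from -0.086 to 0.0018 for PCDH12, -0.10 to 0.0080 for PCDH17, -0.063 to 0.14 for PCDHA1, -0.24 to 0.096 for PCDHA11, -0.14 to 0.22 for PCDHA5 and -0.050 to 0.19 for PCDHB11; without replicate 3 of both groups they were -0.11 for PCDHA1, -0.19 for PCDHA5, -0.073 for PCDHB11 and -0.41 for PCDHA11, which was then called (limma, adjusted p = 0.0472). The cause was not tested. No background estimate was used here, so signal over background is unknown for the dim members.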
